A study of Mus musculus with 12 samples.

Results

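The 10 genes described here are mouse GTPases of cell-autonomous immunity, taken by symbol from a table of 51912 genes. They are Gbp2, Gbp3, Gbp4, Gbp5, Gbp6, Gbp7, Gbp8 and Gbp9, which encode guanylate binding proteins, and Irgm1 and Igtp, which encode immunity-related GTPases (IRGs). All 10 were found in the table and all 10 passed the filter on low counts. RNA had been sequenced from bone marrow of C57BL/6 mice to measure how an activating mutation of CSF3R, a cytokine receptor through which G-CSF drives neutrophil production, and a C-terminal mutation of CEBPA, a transcription factor required for granulocyte differentiation, act alone and together. The 12 libraries form 4 groups of 3 biological replicates lettered A, B and C: empty vector (Empty), CSF3R T618I, CEBPA V314VW, and both mutants. Marrow of every group was grown with SCF, IL-6, IL-3 and medium conditioned by WEHI cells while retrovirus was added, and cells negative for lineage antigens and positive for the GFP and RFP vector markers were sorted and frozen. The mutants were thus expressed from retroviral vectors, in cells that kept their own Csf3r and Cebpa genes, and the labels give no age for the mice. Nothing in the labels states that equal letters share an animal.

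Guanylate binding proteins are large GTPases of the dynamin superfamily that interferons induce. They gather on the membranes around intracellular bacteria and parasites, or on the microbes themselves, where they help to break the compartment open and to bring in inflammasome caspases. IRGs are smaller GTPases of the same response, and Irgm1 and Igtp (also called Irgm3) belong to the regulatory branch that keeps the effector IRGs inactive on the cell's own membranes. In mice, Irgm1 is also known for limiting interferon-driven exhaustion of hematopoietic stem cells.

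The members lie in a few places of the mouse genome. Gbp5, Gbp7, Gbp3 and Gbp2 follow each other on chromosome 3 between 142493978 and 142638008. Gbp8, Gbp9, Gbp4 and Gbp6 lie on chromosome 5 between 105014150 and 105293698. Irgm1 (48861968 to 48871683) and Igtp (58199556 to 58207591) lie apart on chromosome 11, all positions being those of GENCODE M21 on GRCm38, the mm10 build of the files. The RefSeq promoter table of GRCm38.p6 held 6 of the 10 members, and the 250 bases before the start site of each are shown because they hold the motifs through which interferon signals are known to reach these genes. They are written 5′ to 3′ on the strand of the gene, with motif matches in capitals.

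Gbp5: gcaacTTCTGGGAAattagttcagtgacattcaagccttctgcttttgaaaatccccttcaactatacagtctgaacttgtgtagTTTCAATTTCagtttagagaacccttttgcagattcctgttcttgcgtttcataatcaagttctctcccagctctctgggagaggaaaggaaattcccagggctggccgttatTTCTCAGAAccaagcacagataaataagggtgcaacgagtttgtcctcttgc
Gbp7: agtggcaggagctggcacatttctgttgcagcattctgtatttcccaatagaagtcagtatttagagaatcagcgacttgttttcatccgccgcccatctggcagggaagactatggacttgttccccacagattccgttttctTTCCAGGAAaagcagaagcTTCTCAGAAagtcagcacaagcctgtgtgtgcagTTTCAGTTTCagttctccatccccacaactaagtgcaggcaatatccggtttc
Gbp3: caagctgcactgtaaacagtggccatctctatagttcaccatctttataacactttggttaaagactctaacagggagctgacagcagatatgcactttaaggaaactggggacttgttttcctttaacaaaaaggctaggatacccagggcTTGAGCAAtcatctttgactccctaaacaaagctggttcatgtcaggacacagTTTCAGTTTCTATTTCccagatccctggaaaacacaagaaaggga
Gbp2: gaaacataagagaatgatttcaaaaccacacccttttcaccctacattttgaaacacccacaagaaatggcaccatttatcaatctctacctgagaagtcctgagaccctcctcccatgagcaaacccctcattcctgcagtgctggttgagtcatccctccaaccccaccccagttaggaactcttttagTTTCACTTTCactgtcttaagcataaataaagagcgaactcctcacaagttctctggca
Irgm1: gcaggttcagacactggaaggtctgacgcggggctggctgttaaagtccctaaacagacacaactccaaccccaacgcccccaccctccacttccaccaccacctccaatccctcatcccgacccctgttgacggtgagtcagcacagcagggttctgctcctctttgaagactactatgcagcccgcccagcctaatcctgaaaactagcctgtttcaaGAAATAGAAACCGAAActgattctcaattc
Igtp: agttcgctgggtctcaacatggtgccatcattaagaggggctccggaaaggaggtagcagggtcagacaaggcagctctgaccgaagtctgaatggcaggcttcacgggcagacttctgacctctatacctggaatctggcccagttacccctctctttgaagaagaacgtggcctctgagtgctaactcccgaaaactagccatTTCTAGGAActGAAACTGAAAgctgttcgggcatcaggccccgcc

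The windows stand at chr3:142496684-142496933 for Gbp5, chr3:142530086-142530335 for Gbp7, chr3:142559794-142560043 for Gbp3 and chr3:142620413-142620662 for Gbp2, all on the plus strand. Those of Irgm1 and Igtp stand at chr11:48871421-48871670 on the minus strand and chr11:58199306-58199555 on the plus strand. The capitals mark 3 motifs, searched on both strands of the full 300-base windows (250 bases before and 50 after the start). The ISRE core, written here as 2 copies of GAAA with any 2 bases between them, is an element read by IRF transcription factors. It occurred in all 6 members, against 3.44% of all 32851 promoters of that length. It began 165 bases before the start site in Gbp5, 53 in Gbp7 and 59 in Gbp2. In Igtp it began 34 bases before the start. Gbp3 held overlapping copies 45 and 39 bases before it, and Irgm1 overlapping copies 30 and 24 bases before it. The GAS element, TTCNNNGAA, is known from genes that interferon-γ induces. It occurred in Gbp5, Gbp7 and Igtp, against 8.3% of all promoters, and in Igtp it stood 45 bases before the start, next to the ISRE core. A CEBP-type motif, TTGCNNAA, occurred in Gbp3, against 10.8% of all promoters. A match describes the letters of the window and says nothing of binding in these cells. A further RefSeq window of Gbp3, from a later start site, held no match to these motifs.

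**Figure D1:**
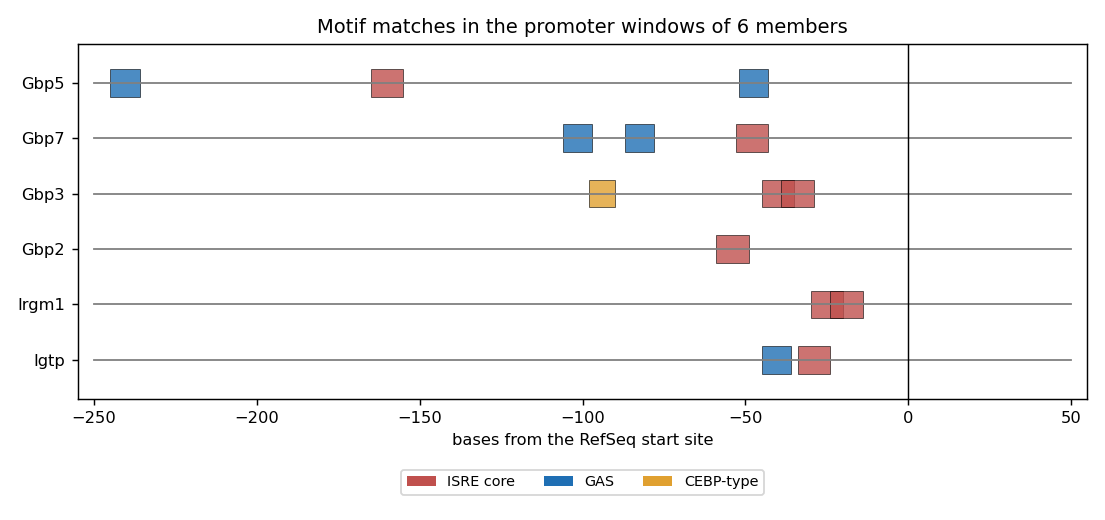
Motif matches in the promoter windows of 6 members. The horizontal axis gives bases from the RefSeq start site and each grey line is the 300-base window of a gene. Boxes mark the ISRE core (red), GAS (blue) and CEBP-type (yellow) motifs. All 6 genes hold an ISRE core, which lies within 59 bases of the start in all of them but Gbp5, where it lies at 165.

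Levels are given as CPM, the reads of a gene per 1000000 reads of the TMM-scaled library size. Library totals ran from 44210071 to 67431235 counts, and no label gives a batch. Fold changes, standard errors (SE) and adjusted p-values come from edgeR's quasi-likelihood test with Benjamini-Hochberg adjustment over the 16360 genes tested. A gene is called higher or lower at an adjusted p under 0.05. The comparisons with Empty share the Empty libraries, as the comparisons of both mutants share those of both, so they are not independent of each other. CSF3R T618I replicate C stood apart: without it, the genes called with CSF3R T618I against Empty went from 1636 higher and 1581 lower to 3001 and 3398, and those with a called interaction from 82 higher and 207 lower to 1011 and 734. With total counts in place of TMM the split was 1231 higher and 2462 lower for CSF3R T618I against Empty, and all genes shifted by -0.109 on the log2 scale. It was 1052 and 2144 against 1274 and 1652 for both mutants against CEBPA V314VW, and 1865 and 1283 against 1379 and 1646 for both against CSF3R T618I. The numbers of members called in each direction were the same under this scaling. In these bulk samples, fewer cells that express a gene and less RNA per cell cannot be told apart.

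Corrected for gene length, the members covered a wide range of levels in Empty cells. Igtp (11.8 ± 1.84 CPM per kb, SD, n = 3) and Gbp7 (11.4 ± 1.12) were at the top and did not differ beyond their spread. Irgm1 (7.22 ± 0.233), Gbp3 (4.64 ± 0.106), Gbp2 (1.16 ± 0.157) and Gbp5 (0.766 ± 0.187) came next. Gbp8 (0.145 ± 0.0669), Gbp4 (0.141 ± 0.0600) and Gbp9 (0.139 ± 0.0477) stood together well below them, and Gbp6 (0.0535 ± 0.00886) was the lowest. With CEBPA V314VW the level per kb of Gbp7 was 30.6 ± 1.85, that of Igtp 22.5 ± 1.46 and that of Gbp5 7.14 ± 0.908. Summed over the 10 members, the libraries held 147 to 169 CPM in Empty cells, 74.9 to 110 with CSF3R T618I, 389 to 430 with CEBPA V314VW and 209 to 216 with both mutants. The 4 groups thus did not overlap in the summed level.

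Gbp5, which in mouse macrophages promotes inflammasome assembly, showed the widest swings of the chromosome 3 members. Its level was 6.35, 3.87 and 5.04 CPM in Empty replicates A, B and C, 0.702, 2.36 and 2.53 CPM with CSF3R T618I, 40.4, 50.8 and 51.0 CPM with CEBPA V314VW, and 30.4, 32.0 and 36.5 CPM with both mutants. No groups overlapped, in the rising order CSF3R T618I, Empty, both mutants and CEBPA V314VW. Gbp7, known in mouse macrophages for helping to assemble the phagocyte oxidase on bacterial compartments, had the highest CPM of the 10. It stood at 71.0, 59.9 and 60.5 CPM in Empty, 22.3, 28.8 and 41.6 CPM with CSF3R T618I, 160, 175.5 and 179.7 CPM with CEBPA V314VW, and 83.2, 82.6 and 82.4 CPM with both. The order was that of Gbp5, again with no overlap, and the CSF3R T618I libraries were spread widely for their level, with an SD of 9.80 around a mean of 30.9 CPM, against 10.4 around 171.7 CPM with CEBPA V314VW. The longest coding transcript of Gbp7 shares 10.2% of its 100-base windows with other genes, mostly the pseudogene Gm43802, which had 0 counts in all 12 libraries.

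Gbp3 stood at 15.5, 15.02 and 14.9 CPM in Empty, 7.91, 11.8 and 13.02 CPM with CSF3R T618I, 47.2, 45.9 and 48.8 CPM with CEBPA V314VW, and 39.3, 39.4 and 41.8 CPM with both. The groups with mutant CEBPA lay far above the others and close to each other. Gbp2, a lipid-anchored member that is recruited to pathogen vacuoles, stood at 3.03, 2.49 and 3.26 CPM in Empty, 2.07, 2.53 and 2.72 CPM with CSF3R T618I, 9.26, 9.99 and 10.2 CPM with CEBPA V314VW, and 5.12, 5.22 and 5.59 CPM with both. Only its Empty and CSF3R T618I libraries overlapped. Neither Gbp2 nor Gbp5 shares a 100-base window with another gene, and Gbp3 shares 0.929% of its windows.

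The chromosome 5 members were the least abundant. Gbp9 stood at 0.541, 0.612 and 0.9995 CPM in Empty, 0.186, 0 and 0.194 CPM with CSF3R T618I, 3.31, 5.44 and 5.05 CPM with CEBPA V314VW, and 1.06, 1.37 and 0.912 CPM with both. Its levels with both mutants overlapped Empty and stayed well below CEBPA V314VW alone. Gbp6 stood at 0.367, 0.262 and 0.326 CPM in Empty, 0.0620, 0.0456 and 0.0432 CPM with CSF3R T618I, 2.14, 2.03 and 2.01 CPM with CEBPA V314VW, and 0.133, 0.0895 and 0.0776 CPM with both. Its CSF3R T618I group rests on 8 counts and the group with both mutants on 14, and 82.9% of the 100-base windows of its longest coding transcript also occur in the overlapping gene Gm43302, which had 0 counts in all 12 libraries. Its absolute level is therefore uncertain.

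Gbp4 stood at 1.55, 0.656 and 0.979 CPM in Empty, 0.0826, 0.152 and 0.130 CPM with CSF3R T618I, 1.62, 1.93 and 1.79 CPM with CEBPA V314VW, and 0.530, 0.537 and 0.640 CPM with both. Gbp8 stood at 0.348, 0.765 and 0.388 CPM in Empty, 0.145, 0 and 0.0432 CPM with CSF3R T618I, 0.922, 0.887 and 0.780 CPM with CEBPA V314VW, and 0.199, 0.224 and 0.136 CPM with both. For this pair the Empty replicates were spread widely, and the highest Empty library lay close under the lowest CEBPA V314VW library. CSF3R T618I replicate B had 0 counts of both Gbp8 and Gbp9, which allows a level of up to 0.0456 CPM there. The annotated exons of Gbp4, Gbp8 and Gbp9 overlap by about 121 bases on the same strand, so a small part of their reads could be shared.

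The IRGs on chromosome 11 varied the least. Irgm1 stood at 42.8, 40.4 and 42.7 CPM in Empty, 27.5, 27.0 and 27.8 CPM with CSF3R T618I, 82.3, 75.4 and 83.9 CPM with CEBPA V314VW, and 30.9, 30.2 and 28.6 CPM with both. Its libraries agreed closely within each group, and the group with both mutants lay near CSF3R T618I and below Empty. Igtp stood at 27.7, 23.3 and 20.3 CPM in Empty, 13.9, 14.8 and 21.8 CPM with CSF3R T618I, 42.1, 47.8 and 46.4 CPM with CEBPA V314VW, and 17.98, 17.4 and 19.2 CPM with both. Its CSF3R T618I libraries overlapped both Empty and both mutants through replicate C, and only the CEBPA V314VW libraries stood apart from all the others. The exons of Igtp and Irgm2, the third regulatory IRG, overlap by 162 bases on the same strand.

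**Figure D2:**
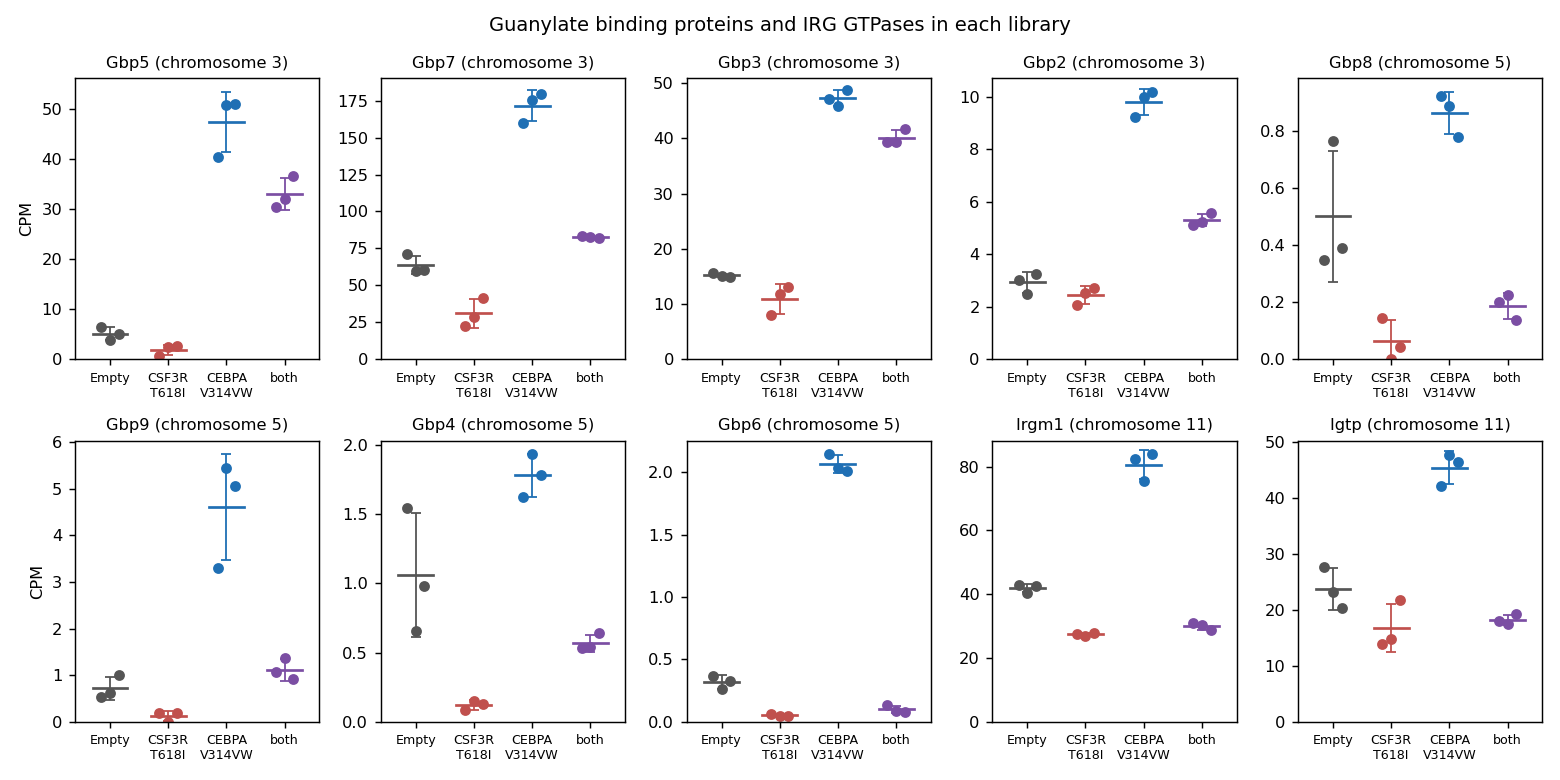
CPM of the 10 members in each library, with 1 panel per gene and its own vertical axis from 0. Points are libraries (n = 3 per group), wide lines are group means and bars are SD. CEBPA V314VW is the highest group in all 10 panels. The group with both mutants lies above Empty for Gbp5, Gbp7, Gbp3 and Gbp2, overlaps it for Gbp9 and lies below it for Gbp8, Gbp4, Gbp6, Irgm1 and Igtp.

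With CEBPA V314VW alone, 8 of the 10 members were higher than in Empty cells, against 9.50% of all tested genes that were higher and 7.68% that were lower. Gbp5 was 9.29-fold higher (log2 fold change 3.22 ± 0.32 SE, edgeR adjusted p = 1.31e-05), Gbp6 6.42-fold (2.68 ± 0.27, adjusted p = 1.30e-05) and Gbp9 6.39-fold (2.68 ± 0.47, adjusted p = 0.00123). Gbp2 was 3.35-fold higher (1.74 ± 0.15), Gbp3 3.12-fold (1.64 ± 0.15) and Gbp7 2.69-fold (1.43 ± 0.18). The IRGs moved less, with Irgm1 1.92-fold (0.94 ± 0.08) and Igtp 1.91-fold (0.93 ± 0.16) higher. Gbp4 (log2 fold change 0.74 ± 0.30, adjusted p = 0.116) and Gbp8 (0.79 ± 0.53, adjusted p = 0.401) were not called. The median over the members was 1.53 on the log2 scale, beside 0.004 over all tested genes. Gbp4 passed the threshold without Empty replicate A (1.11, adjusted p = 0.0264).

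With CSF3R T618I alone, 9 of the 10 members were lower than in Empty cells, against 9.66% of all tested genes that were lower and 10.0% that were higher. The chromosome 5 members fell furthest. Gbp4 was 8.46-fold lower (log2 fold change -3.08 ± 0.37, edgeR adjusted p = 6.67e-05), Gbp8 8.25-fold (-3.04 ± 0.69, adjusted p = 0.00756), Gbp6 6.13-fold (-2.62 ± 0.37, adjusted p = 0.000212) and Gbp9 6.05-fold (-2.60 ± 0.61, adjusted p = 0.00910). These 4 rest on 8 to 20 counts over the CSF3R T618I group. Among the abundant members, Gbp5 was 2.71-fold lower (-1.44 ± 0.33, adjusted p = 0.00762), Gbp7 2.07-fold (-1.05 ± 0.18, adjusted p = 0.000916) and Irgm1 1.53-fold (-0.61 ± 0.08, adjusted p = 0.000160). Gbp3 (-0.47 ± 0.14, adjusted p = 0.0368) and Igtp (-0.50 ± 0.16, adjusted p = 0.0476) passed narrowly, and Gbp2 was not called (-0.27 ± 0.15, adjusted p = 0.241). The median was -1.24, beside 0.012 over all tested genes. The calls of Gbp3 and Igtp were lost in 9 and 12 of 19 alternative settings, with an adjusted p of up to 0.173 and 0.179. Both were lost without Empty replicate A or B, CSF3R T618I replicate A or B, or any library of both mutants, and Igtp also without CEBPA V314VW replicate C. Without CSF3R T618I replicate A the log2 fold change of Gbp3 was -0.29 and that of Gbp8 -4.59. Fitted on the 6 libraries of these groups alone, 4 of the 10 members were lower.

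**Figure D3:**
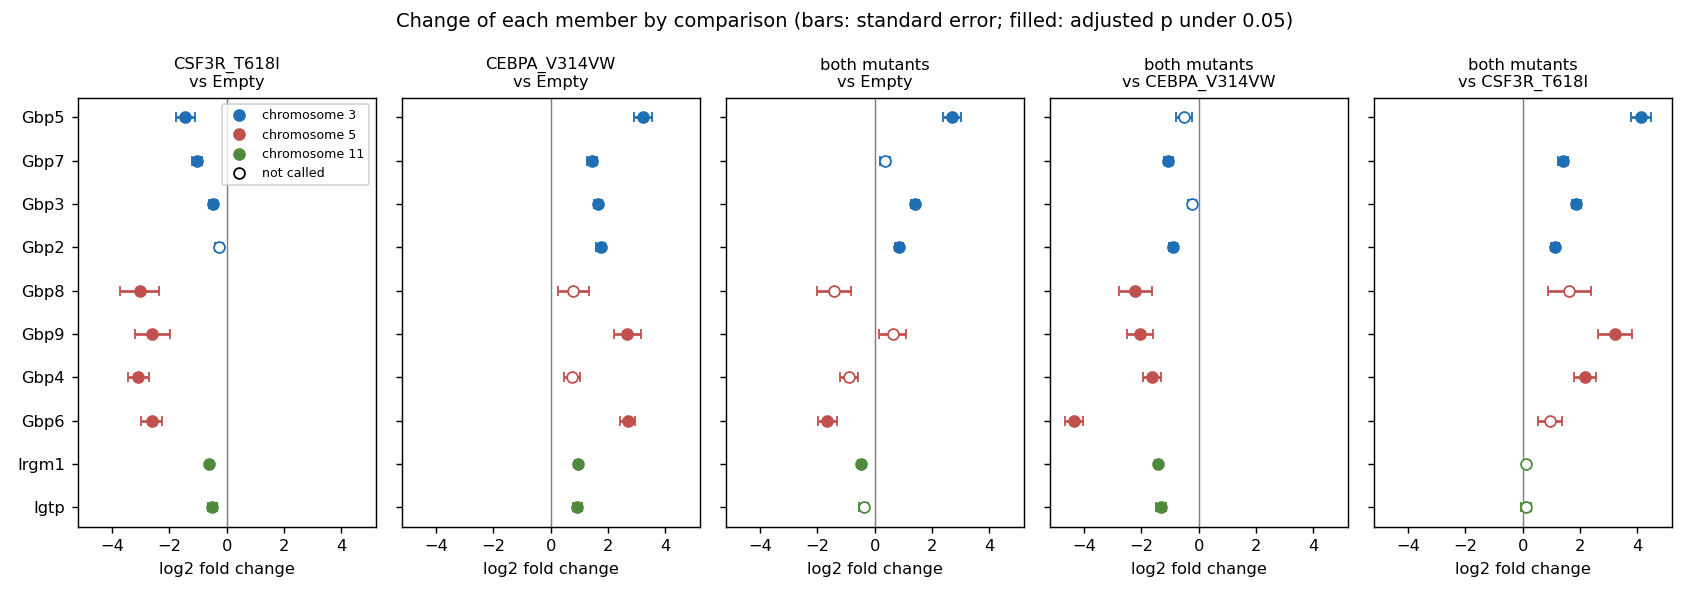
Log2 fold change of each member in 5 comparisons, with bars for the SE. Colours give the chromosome, and filled points passed an adjusted p under 0.05. The members lie left of 0 with CSF3R T618I and right of 0 with CEBPA V314VW. In both mutants against Empty the chromosome 3 members and Gbp9 lie right of 0 while Irgm1, Igtp, Gbp8, Gbp4 and Gbp6 lie left of it. Of these, Gbp7, Gbp9, Igtp, Gbp8 and Gbp4 were not called.

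Adding CSF3R T618I to CEBPA V314VW lowered 8 of the 10 members, against 10.1% of all tested genes that were lower and 7.79% that were higher. Gbp6 was 20.3-fold lower than with CEBPA V314VW alone (log2 fold change -4.34 ± 0.31, edgeR adjusted p = 9.45e-07). Its size was the largest estimated for a member in any comparison. It was within its error of that of Gbp5 with both mutants against CSF3R T618I (4.13 ± 0.34). The Gbp6 value rests on 14 counts over the group with both mutants. Gbp8 (-2.21 ± 0.59, adjusted p = 0.0196), Gbp9 (-2.05 ± 0.45, adjusted p = 0.00629) and Gbp4 (-1.64 ± 0.31, adjusted p = 0.00231) fell as well. Irgm1 was 2.69-fold lower (-1.43 ± 0.08), Igtp 2.50-fold (-1.32 ± 0.16), Gbp7 2.08-fold (-1.05 ± 0.17) and Gbp2 1.85-fold (-0.89 ± 0.14). Gbp5 (-0.52 ± 0.29, adjusted p = 0.262) and Gbp3 (-0.24 ± 0.14, adjusted p = 0.313) were not called, although their groups did not overlap. The median was -1.37, beside -0.019 over all tested genes. The call of Gbp8 was lost in 6 of 19 settings, among them without CEBPA V314VW replicate A or B and without any of the 3 libraries of both mutants, with an adjusted p of 0.0513 to 0.0888 in these. That of Gbp5 was gained without CSF3R T618I replicate A (adjusted p = 0.0302). With limma voom, 5 members were lower, and Gbp4, Gbp8 and Gbp9 lost their calls. Fitted on the 6 libraries of these groups alone, all 10 were lower, with Gbp3 (adjusted p = 0.0254) and Gbp5 (adjusted p = 0.00675) called as well.

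Adding CEBPA V314VW to CSF3R T618I raised 6 of the 10 members, against 8.43% of all tested genes that were higher and 10.1% that were lower. All 4 chromosome 3 members were among them. Gbp5 was 17.6-fold higher (log2 fold change 4.13 ± 0.34, edgeR adjusted p = 3.76e-06), Gbp3 3.68-fold (1.88 ± 0.15), Gbp7 2.68-fold (1.42 ± 0.18) and Gbp2 2.18-fold (1.12 ± 0.15). Gbp9 (3.23 ± 0.59, adjusted p = 0.00204) and Gbp4 (2.19 ± 0.38, adjusted p = 0.00145) also rose. Irgm1 (0.12 ± 0.08, adjusted p = 0.310) and Igtp (0.12 ± 0.16, adjusted p = 0.642) were not called, nor were Gbp6 (0.96 ± 0.43, adjusted p = 0.254) and Gbp8 (1.63 ± 0.75, adjusted p = 0.153). Without CSF3R T618I replicate A, Gbp8 passed the threshold (3.17, adjusted p = 0.0250). Igtp passed it without replicate C of that group (0.35, adjusted p = 0.0410). The median was 1.53, beside -0.021 over all tested genes.

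In cells with both mutants, members were called in both directions. Of the other interferon-inducible GTPases described below, 1 of 14 was higher and 3 were lower than in Empty. Of the interferon-stimulated genes, 3 of 25 were higher and 9 lower. In these 2 lists the part that was higher was near the share over all tested genes. Compared with Empty, 3 of the 10 members were higher and 2 were lower, against 10.7% of all tested genes in the higher direction and 10.7% in the lower. Gbp5 was 6.47-fold higher (log2 fold change 2.69 ± 0.31, edgeR adjusted p = 3.47e-05), Gbp3 2.65-fold (1.41 ± 0.14, adjusted p = 1.23e-05) and Gbp2 1.81-fold (0.86 ± 0.15, adjusted p = 0.000838). Gbp6 was 3.16-fold lower (-1.66 ± 0.33, adjusted p = 0.00270) and Irgm1 1.40-fold lower (-0.49 ± 0.08, adjusted p = 0.000737). Gbp7 (0.37 ± 0.17, adjusted p = 0.161), Igtp (-0.38 ± 0.16, adjusted p = 0.124), Gbp4 (-0.90 ± 0.31, adjusted p = 0.0614), Gbp8 (-1.42 ± 0.60, adjusted p = 0.123) and Gbp9 (0.63 ± 0.47, adjusted p = 0.430) were not called. The median was -0.005, beside 0.009 over all tested genes. The number lower was 4 when only these 6 libraries were fitted and 1 with limma voom, which lost Gbp6. Without CSF3R T618I replicate C, Gbp7 (adjusted p = 0.0142) and Igtp (adjusted p = 0.0200) passed the threshold, and Gbp7 also passed it without replicate A of that group (adjusted p = 0.0472). Without Empty replicate B, Gbp4 passed it (-1.14, adjusted p = 0.0204), and Gbp8 did so without CSF3R T618I replicate A (adjusted p = 0.0493) or B (adjusted p = 0.0428).

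Grouped by chromosome, the members overlapped in this comparison. The 4 chromosome 3 members had log2 fold changes of 0.37 to 2.69 with both mutants against Empty, the 4 on chromosome 5 of -1.66 to 0.63, and the pair on chromosome 11 of -0.49 and -0.38. Gbp9 on chromosome 5 (0.63, not called) lay above Gbp7 on chromosome 3 (0.37, not called), and 5 of the 10 members were called. Ifi47, an IRG gene on chromosome 11 that is not among the 10, was higher (0.36). Of the summed CPM of the 10 members, the chromosome 3 members held 55.2% to 56.7% in Empty libraries, 44.1% to 54.5% with CSF3R T618I, 66.0% to 67.9% with CEBPA V314VW and 75.7% to 77.0% with both. Irgm1 and Igtp held 41.6% to 43.3%, 45.1% to 55.3%, 29.6% to 32.0% and 22.2% to 23.4% in the same order. The chromosome 5 members held 1.56% to 1.80%, 0.226% to 0.635%, 2.05% to 2.48% and 0.818% to 1.06%. The groups did not overlap in any of these shares. This grouping was made after the values were known and is given as a description, without a test.

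**Figure D4:**
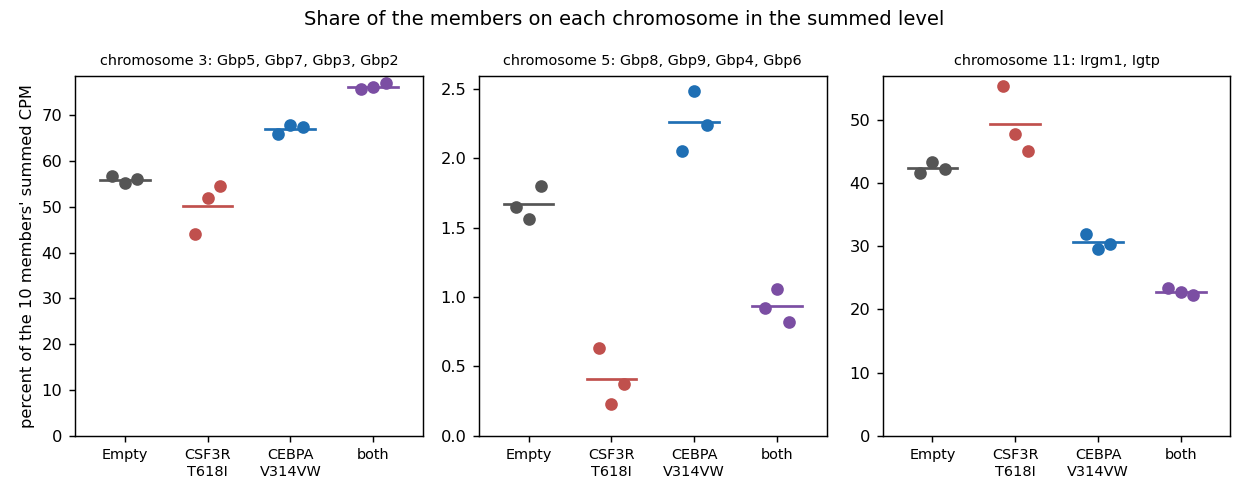
Share of the 10 members' summed CPM held by the members on each chromosome, in percent, by library (points, n = 3 per group) with the group mean (line). The share of the chromosome 3 members is highest with both mutants, at 75.7% to 77.0%, where that of Irgm1 and Igtp is lowest, at 22.2% to 23.4%.

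The interaction, the effect of CSF3R T618I with mutant CEBPA minus its effect without, asks whether the mutants acted additively on the log2 scale. It was called for Irgm1 alone (-0.82 ± 0.12, edgeR adjusted p = 0.00286), against 1.27% of all tested genes with a lower and 0.501% with a higher interaction. CSF3R T618I lowered Irgm1 by 0.61 on the log2 scale without mutant CEBPA and by 1.43 with it. Igtp had the same estimate with a larger error (-0.82 ± 0.23, adjusted p = 0.127), and passed the threshold without CSF3R T618I replicate C (-0.58, adjusted p = 0.0442). The other 8 members ranged from -1.73 ± 0.54 for Gbp6 (adjusted p = 0.293) to 1.44 ± 0.48 for Gbp4 (adjusted p = 0.227), and Gbp7 was near 0 (-0.01 ± 0.25). A miss of the threshold does not show that these members were additive.

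Over the 12 libraries, the log2 levels of the members were correlated in all 45 pairs, with Pearson's r of 0.511 to 0.995 and a median of 0.823. The libraries form 4 groups, so these values mostly describe group differences. The closest pairs were Gbp6 with Irgm1 (0.995) and Gbp3 with Gbp5 (0.992), and the most distant was Gbp3 with Gbp8 (0.511). Outside the lists used here, the genes most like the mean standardized profile of the members were Ifi203 (r = 0.994, n = 12 libraries), Tmem8b (0.992), 5031439G07Rik (0.992), Cep126 (0.991) and Spry1 (0.990).

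Among 16 other interferon-inducible GTPases, Gbp2b and Gbp10 had between 0 and 13 counts per group and were not tested. Of the 14 tested, 12 were higher with CEBPA V314VW than in Empty, against 9.50% of all tested genes. With CSF3R T618I, 8 were lower than in Empty, against 9.66%. All 14 were lower with both mutants than with CEBPA V314VW alone, against 10.1%. Iigp1 and Tgtp2, effector IRGs that bind pathogen vacuoles, had log2 fold changes with CEBPA V314VW of 4.08 ± 0.52 and 2.36 ± 0.15. Those of Mx1 and Mx2, genes of the dynamin superfamily, were 2.96 ± 0.44 and 2.65 ± 0.55, and Mx2 is annotated as a polymorphic pseudogene. Ifi47, an IRG, was the most abundant of the list and rose from 107 to 117 CPM in Empty libraries to 279 to 299 CPM (1.38 ± 0.10). Irgm2 (1.40 ± 0.17), Tgtp1 (1.85 ± 0.33), the annotated polymorphic pseudogene Gbp11 (1.98 ± 0.44) and the annotated pseudogene Gm12250 (1.84 ± 0.14) rose as well. Gvin1 (0.98 ± 0.27) and 9930111J21Rik1 (0.99 ± 0.32) rose less, and Gm5431 (2.74 ± 0.83) rose from 9 counts over the Empty group. Gm4070 and 9930111J21Rik2 were not called in that comparison. Gvin1 (-1.99 ± 0.30) and Gm4070 (-2.09 ± 0.39), members of the very large inducible GTPases, were among the 8 that fell with CSF3R T618I.

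With both mutants against Empty, Ifi47 was the gene of this list that was higher (0.36 ± 0.10), and Mx1 (-3.17 ± 0.67), Mx2 (-3.29 ± 0.84) and 9930111J21Rik1 (-1.75 ± 0.35) were lower. Over all tested genes, 10.7% were higher and 10.7% lower in that comparison. Mx1 had 50 counts over the Empty group, 36 with CSF3R T618I, 394 with CEBPA V314VW and 5 with both. The interaction was called lower for Tgtp2, Mx1 and Mx2 (edgeR adjusted p = 0.0256, 0.00346 and 0.0480), against 1.27% of all tested genes.

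The interferon pathway upstream of these GTPases moved in parts. Ifng and Ifnb1, the genes of interferon-γ and interferon-β, had at most 6 counts in any group and were not tested. Of the 18 genes tested, 6 were higher and 2 lower with CEBPA V314VW, against 9.50% and 7.68% of all tested genes. Irf9 (1.29 ± 0.10) and Irf1 (0.90 ± 0.11), transcription factors that read the ISRE, rose, and Socs3, a feedback inhibitor of cytokine receptors, fell (-0.94 ± 0.12). Irf9 stood at 72.3 to 74.7 CPM with CEBPA V314VW against 27.1 to 33.0 CPM in Empty, 19.8 to 22.4 CPM with CSF3R T618I and 23.4 to 27.4 CPM with both. With CSF3R T618I, 4 of the 18 were higher and 2 lower, against 10.0% and 9.66% of all tested genes. Socs3 (2.31 ± 0.13) and Irf1 (0.64 ± 0.11) rose while Irf8 (-1.57 ± 0.13), a transcription factor of monocytes and dendritic cells, and Irf9 (-0.51 ± 0.10) fell. With both mutants against CEBPA V314VW, 2 were higher and 4 lower, against 7.79% and 10.1% of all tested genes. In that comparison Socs3 was at 2.47 ± 0.13, Irf9 at -1.55 ± 0.10 and Irf8 at -1.33 ± 0.13. Irf1 stood apart from Irf9, since with both mutants it stayed higher than in Empty (0.84 ± 0.11), at 41.0 CPM in all 3 libraries. The interaction was called lower for 4 of the 18, against 1.27% of all tested genes. Among them were Irf9 (-1.04 ± 0.14), Stat2 (-0.80 ± 0.13) and Irf1 (-0.70 ± 0.15).

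Called interferon-stimulated genes outside the GTPase families had the directions of the members with each mutant alone. Of 25 tested, 21 were higher with CEBPA V314VW, against 9.50% of all tested genes. They were led by Ifit3 (5.18 ± 0.36), Ifi44 (4.39 ± 0.35), Ifit1 (3.84 ± 0.28) and Rtp4 (3.57 ± 0.25). With CSF3R T618I, 10 were lower, against 9.66% of all tested genes. Cmpk2 (-2.29 ± 0.13), Usp18 (-2.20 ± 0.19), Ifi44 (-2.10 ± 0.46) and Rtp4 (-2.10 ± 0.27) were furthest down. With both mutants against CEBPA V314VW 22 of 25 were lower, against 10.1% of all tested genes. Among them were Ifi44 (-5.38 ± 0.38) and Usp18 (-4.55 ± 0.21). With both mutants against Empty, 3 of 25 were higher and 9 lower, with a median of -0.44. Over all tested genes, 10.7% were higher and 10.7% lower, so the higher part of the list was near that share. In this list the interaction was called lower for 17 of 25, against 1.27% of all tested genes. Isg15 (-3.91 ± 0.44) and Rsad2 (-3.62 ± 0.31) led, and the median was -1.89. The median interaction over the 10 members was 0.12, with values from -1.73 to 1.44. Over the 14 other GTPases tested it was -0.98.

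The partners that act with these GTPases at vacuoles and in inflammasomes did not move as a group. Of the 21 tested, 5 were higher and 3 lower with CEBPA V314VW, with a median of 0.008, and 2 were higher and 6 lower with CSF3R T618I, with a median of 0.003. Over all tested genes, 9.50% were higher and 7.68% lower with CEBPA V314VW, and 10.0% higher and 9.66% lower with CSF3R T618I. Trim21, a ubiquitin ligase, had the GTPases' directions: it rose with CEBPA V314VW (1.02 ± 0.12), fell with CSF3R T618I (-0.63 ± 0.12) and was lower with both mutants than with CEBPA V314VW alone (-1.32 ± 0.12). Casp4, the mouse inflammasome caspase also called caspase-11, and Lgals3, a galectin that marks broken vacuoles, rose with CSF3R T618I (1.38 ± 0.16 and 1.58 ± 0.17). Nlrp3, an inflammasome sensor, fell with CSF3R T618I (-1.36 ± 0.23), with CEBPA V314VW (-1.17 ± 0.23) and furthest with both (-2.14 ± 0.24). Atg12 (-0.66 ± 0.11), of the autophagy conjugation system, fell with CEBPA V314VW and Lgals8 (0.65 ± 0.11) rose.

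**Figure D5:**
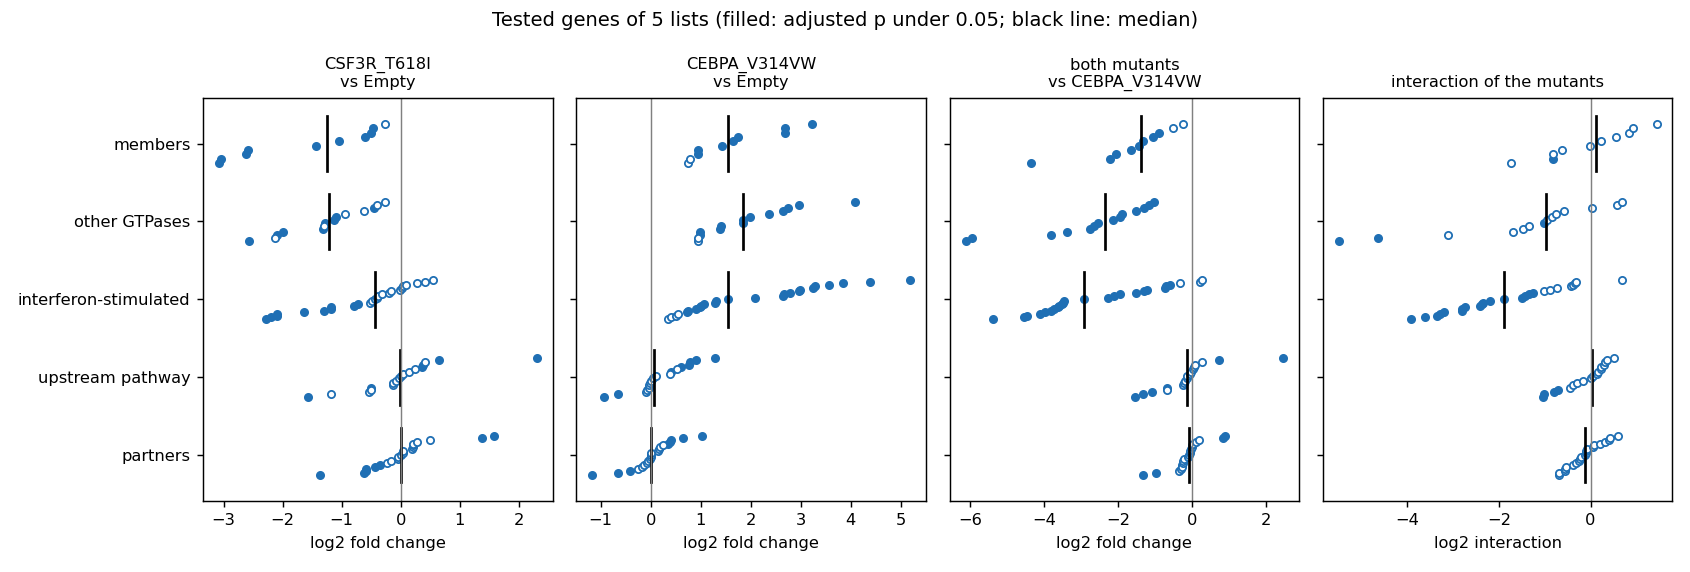
Log2 fold change of each tested gene in 5 lists, in 3 comparisons and for the interaction. Filled points passed an adjusted p under 0.05 and black lines are list medians. In the first 3 panels the medians of the members, the other GTPases and the interferon-stimulated genes lie on the same side of 0. The medians of the upstream and partner lists lie near 0 there. For the interaction the median is 0.12 for the members, -0.98 for the other GTPases and -1.89 for the interferon-stimulated genes.

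Markers of cell types moved with the groups. For the counts below, 10.0% of all tested genes were higher and 9.66% lower with CSF3R T618I than in Empty. These shares were 9.50% and 7.68% with CEBPA V314VW, and 10.7% and 10.7% with both mutants. All 10 progenitor markers, those of the labelled cells, were detected in every group, and their summed level was 10830 to 15940 CPM in Empty, 8606 to 9910 with CSF3R T618I, 6750 to 8313 with CEBPA V314VW and 6005 to 6677 with both. Mpo and Elane made up most of the sum, with 6203 and 2876 CPM in Empty. With CSF3R T618I, 7 of the 10 were lower and 3 were not called. With CEBPA V314VW, 6 were lower, 2 were higher, Flt3 (2.23-fold) and Myb (1.23-fold), and 2 were not called, Kit and Mpo. Neutrophil markers summed to 421 to 989 CPM in Empty, 3857 to 8914 with CSF3R T618I, where 5 of 8 were higher, 74.6 to 129 with CEBPA V314VW, where 6 of 8 were lower, and 830 to 988 with both. Erythroid markers summed to 55.4 to 63.4, 485 to 840, 35.02 to 40.03 and 241 to 251 CPM in the same order, with 8 of 8 higher than in Empty with CSF3R T618I and with both. Most of the neutrophil sum came from S100a8 and S100a9, with 479 and 328 CPM with both mutants. Of the 8 neutrophil markers, 1 was higher, 3 were lower and 4 were not called with both mutants against Empty. Ngp had a mean of 123 CPM in Empty and 6.4 CPM with both, and Lcn2 of 20.6 and 89.65 CPM. Monocyte and macrophage markers overlapped between Empty (398 to 539 CPM) and CEBPA V314VW (368 to 473 CPM), and C1qa was at 0 in both. They summed to 271 to 410 CPM with CSF3R T618I and 342 to 347 CPM with both mutants. Most of the sum in Empty came from Ly6c2 (306 CPM), and of the 9 tested with CEBPA V314VW, Fcgr1 (log2 fold change 1.33) and Cd14 (0.93) were higher and Csf1r (-1.01) and Adgre1 (-1.59) lower. Dendritic cell markers summed to 22.5 to 23.5 CPM with CEBPA V314VW against 26.4 to 30.5 CPM in Empty, with Cd209a at 0 in every group. All 7 that were tested were not called in that comparison. Most of the sum came from H2-Ab1, with 15.5 CPM with CEBPA V314VW and 16.2 CPM in Empty. Of T and NK cell markers, which summed to 123 to 131 CPM with CEBPA V314VW and 318 to 372 CPM in Empty, nearly all came from Nkg7, which was lower, Klrb1c was higher, and Cd8a was at 0 in every group. B cell markers summed to 10.1 to 10.8 CPM with CEBPA V314VW, where Ms4a1 and Pax5 were at 0, and 13.3 to 15.04 CPM in Empty. The part of these cell types in the GTPase levels was not tested.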

How the data were processed

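RNA was sequenced from sorted, vector-positive, lineage-negative bone marrow cells in 4 groups of 3 libraries. Per the paper's methods and the submitters' notes, the authors trimmed reads with Trimmomatic, aligned them with STAR to mm10 and tested them with DESeq2, after a SMARTer low-input cDNA kit that amplifies by PCR. The table the authors deposited holds unnormalized read counts, with a column for each library. Of its 51918 lines, 6 repeats of a gene were left out. For the counting step, the program, annotation and strand setting were not given in the sources used here.

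Testing used the robust quasi-likelihood F test of edgeR 4.0.16 (R 4.3.3, TMM scaling, default expression filter by group), in 1 model with CSF3R, CEBPA and their interaction over all 12 libraries. P-values were adjusted by Benjamini-Hochberg over 16360 genes. SE was derived as |log2 fold change| divided by √F. For Gbp6, at low counts, this SE is smaller than its edgeR p-value implies in some comparisons. These were both mutants against CSF3R T618I (0.96 ± 0.43, unadjusted p = 0.114) and the interaction (-1.73 ± 0.54, unadjusted p = 0.0181). The code was tested on simulated data. CPM per kb uses GENCODE M21 exon length. Genes named were all members, every tested gene of the other GTPases and, per list and comparison described, up to 4 called genes with the largest change and at least 1 CPM in a group. Some list and marker genes are not reported here. Members and lists were chosen with earlier results of these data known. Alternatives were DESeq2 1.42.0, limma voom 3.58.1 with group weights, total counts, no filter, the compared groups only, a length trend taken out, a replicate block and leaving out each library. With 3 libraries per group, p-values measure the spread between these samples, pooled over all 4 groups in the main model. That spread was unequal. Chi-square per degree of freedom between pairs of libraries was 4.11 to 6.90 with both mutants and 9.09 to 70.7 with CEBPA V314VW. It was 32.6 to 113 in Empty and 75.0 to 327 with CSF3R T618I. A p-value thus does not describe the spread of the compared groups alone. Floors (3 counts) cover counting error only.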

Additional observations from a re-analysis of the deposited data

Results flagged for a closer look

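For 1 of the 10 members and 3 of the 14 other GTPases tested, the effect of CSF3R T618I differed with and without mutant CEBPA. This is by edgeR's interaction test, with values on the log2 scale. Over all tested genes, 1.27% had a lower and 0.501% a higher interaction. The interaction was -0.82 for Irgm1, -1.01 for Tgtp2, -5.50 for Mx1 and -4.64 for Mx2. Irgm1 was called with each of the 12 libraries left out in turn. The values for Mx1 and Mx2 rest on 5 counts each over the group with both mutants.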

How the results depend on the processing

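Of the 60 member values, 59 kept their direction and call with DESeq2, with total counts as the scaling and with no filter on low counts. The numbers of members called moved by over 1.5 times in few settings. Fitting only the compared groups gave 4 lower with CSF3R T618I against Empty (9 in the model of all libraries) and 4 lower with both mutants against Empty (2 in that model). Limma voom gave 1 lower for the latter and 5 lower with both against CEBPA V314VW (8 with edgeR), where fitting the compared groups only gave 10. Leaving out single libraries gave 1 to 2 members with a lower interaction. The causes were not tested. Directions turned for 3 values that were not called. The interaction of Gbp7 (-0.01) was 0.018 with DESeq2, 0.029 with total counts, 0.007 with no filter, 0.042 with limma voom, 0.022 with the replicate block, and -0.192 to 0.270 without single libraries. Without single libraries, the interaction of Gbp9 (0.55) ran from -0.144, without CSF3R T618I replicate B, to 1.06, and Igtp with both mutants against CSF3R T618I (0.12) from -0.002 to 0.350. The 18 same-letter pairs of libraries correlated at -0.349 to 0.285, 2 of them over 0.1, so the letters were not taken to pair samples. With the replicate block, 8 members were lower with CSF3R T618I against Empty, Igtp losing its call (adjusted p = 0.0732), and 58 of 60 values kept direction and call. Over all genes, fitting the compared groups only called 898 higher and 804 lower with CSF3R T618I against Empty, 2285 higher with both against CEBPA V314VW and 1005 lower with both against CSF3R T618I, and limma voom called 929 lower in the first of these. The interaction was called higher for 220 and lower for 351 genes with DESeq2, higher for 138 with the length trend taken out and higher for 42 and lower for 135 with the replicate block. Low counts limit Gbp4, Gbp6, Gbp8 and Gbp9 in CSF3R T618I cells most.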
